A study of Mus musculus with 13 samples.

Results

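The collagen alpha chains were taken as every gene with a mouse symbol made of Col, a number, the letter a and a second number. The mouse annotation (GENCODE) holds 44 such genes, and 43 of the 17924 genes in the count tables were among them; Col6a4 was not analysed here. A chain entered the tests where its normalized count, the count divided by the size factor of the library, was at least 10 in at least 3 libraries. This left 42 of the 43 chains among 17069 genes, and Col9a1, a chain of the cartilage fibril surface, stayed below it. By the kind of structure they build, the 43 chains are 11 fibrillar, 6 basement membrane, 5 beaded filament, 3 network, 9 FACIT, 2 multiplexin, 4 transmembrane and 3 other chains.

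The libraries were RNA-Seq of whole muscles of homozygous *mdm* mice (B6C3Fe a/a-Ttn mdm/J colony), which carry a deletion in the N2A region of the giant muscle protein titin. There were 5 libraries of the extensor digitorum longus (EDL), a fast muscle of the lower leg, 5 of the psoas, a fast muscle that runs along the lumbar spine, and 3 of the soleus, a slow muscle of the calf. The EDL mice were 38 days old except in replicate 3 (42 days), the psoas mice 29, 38, 42, 38 and 38 days in replicates 1 to 5, and the soleus mice 33, 36 and 38 days. All groups share the *mdm* genotype, the wild-type libraries were not analysed here, and the values therefore compare muscles and not genotypes. Muscles of the same mouse may be among the libraries, so the spread between libraries is not in every case a spread between independent animals.

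Collagens are made of 3 alpha chains wound into a triple helix. The fibrillar types form the cables of the extracellular matrix, with types I and III as the bulk and types V and XI inside the fibril, where they limit its width. Type IV is the network of basement membranes, the sheets around each muscle fibre, nerve fibre and vessel. Type VI forms beaded filaments that link that sheet to the fibrils, and the FACIT chains sit on fibril surfaces. In skeletal muscle most of the interstitial chains are made by fibroblasts of the endomysium, perimysium and tendon, and an excess of them is known as fibrosis.

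Total counts ran from 9114176 to 48835209 per library, and collagen chains took 0.0954 to 1.24% of them. The share was 0.409, 0.380, 0.0954, 0.592 and 0.330% in EDL replicates 1 to 5, then 0.489, 1.24, 0.335, 0.918 and 0.584% in psoas and 0.457, 0.739 and 0.597% in soleus. EDL 3, from a 42-day mouse, held the lowest share, and it was the lowest of the EDL libraries for 30 of 42 chains, against 22.8% of all genes tested. Psoas 2 held the highest share and was the highest psoas library for 14 of 42 chains, against 17.5% of all genes. Counts of called chains that involve EDL are therefore also given without EDL 3. The 12 muscle fibre markers, among them Ckm, Acta1 and Ttn, summed to 111221 to 164435 CPM (counts scaled to equal library totals) in EDL, 83285 to 137934 CPM in psoas and 64327 to 87576 CPM in soleus, so that every soleus library was below every EDL library. Slow Myh7 lay between 98825 and 182496 normalized counts in soleus, against at most 20950 in any EDL or psoas library.

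Markers of other cell types moved with the muscle, and their part in the results below was not tested. Here and below a gene was called higher or lower where the Benjamini-Hochberg adjusted p of edgeR's quasi-likelihood test over all genes was below 0.01 and the absolute log2 fold change above 1. Between psoas and EDL 2.43% of all genes tested passed as higher in psoas and 2.50% as lower. Of the 12 muscle fibre markers, 5 were called lower in psoas than in EDL and 4 lower in soleus than in EDL. Of 7 Schwann cell markers, 4 were higher in psoas than in EDL (Mbp, Prx, Ncmap, Drp2), with summed levels of 33.4 to 87.9 CPM in EDL, 181 to 1192 CPM in psoas and 136 to 326 CPM in soleus. Of 8 mesothelial markers, 6 were higher in psoas, with 3.45 to 7.00 CPM in EDL, 19.6 to 102 CPM in psoas and 5.08 to 12.3 CPM in soleus; Bnc1 was at 0 in every EDL library. Of 6 tendon markers, 4 (Tnmd, Mkx, Fmod, Kera) were lower in psoas than in EDL, and Tnmd ranged from 1559 to 2783 normalized counts in EDL, 79.2 to 489 in psoas and 655 to 1032 in soleus. The summed tendon level, mostly Thbs4, was 589 to 982 CPM in EDL, 493 to 1228 CPM in psoas and 407 to 572 CPM in soleus. Of 8 cartilage markers 5 were measured, with summed levels of 3.07 to 14.1, 3.98 to 10.3 and 2.71 to 5.89 CPM in EDL, psoas and soleus. Matn3 and Ucma were lower in psoas than in EDL. Of the 5, 1 went the other way, at 1.59 on the log2 scale without overlap between the 2 muscles, and was not called. Acan, the defining one, was not analysed here. Of 11 fibroblast markers none was called in any of the 3 comparisons, and their summed levels were 2183 to 3721 CPM in EDL, 3249 to 4900 CPM in psoas and 3381 to 5076 CPM in soleus. None of the 8 endothelial, 8 mural cell or 8 macrophage markers was called in any comparison either. The endothelial sum was 114 to 258 CPM in EDL, 149 to 289 CPM in psoas and 256 to 339 CPM in soleus, and the mural sum 494 to 749, 447 to 975 and 585 to 796 CPM. The macrophage sum was 110 to 396 CPM in EDL and 213 to 315 CPM in soleus, and 962 CPM in psoas 2, the library with the highest collagen share, against 209 to 445 CPM in the other psoas libraries.

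To compare levels between chains, normalized counts were divided by exon length in kb. Col3a1, the single chain of type III collagen, was the highest chain in all 3 muscles, at 2838 ± 1410 (SD, n = 5) per kb in EDL, 4929 ± 2754 (n = 5) in psoas and 4599 ± 895 (n = 3) in soleus. It made up 33.0% of the summed collagen level in EDL, 40.3% in psoas and 42.3% in soleus. Behind it the order differed in value between muscles. In EDL the next chains were Col1a1 (937 ± 726 per kb) and Col1a2 (669 ± 529), the chains of type I collagen. In psoas they were the basement membrane chain Col4a1 (784 ± 195) and the beaded filament chain Col6a1 (734 ± 241), and in soleus Col4a1 (828 ± 324) and the type V chain Col5a2 (783 ± 79.7). These neighbours lay within each other's SD in each muscle, so their order is not resolved. At the other end Col9a1 was at 1.17, 0.248 and 0.296 per kb in EDL, psoas and soleus.

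By type, the fibrillar chains made up 62.7 ± 9.01% of the collagen level in EDL, 57.9 ± 8.33% in psoas and 63.7 ± 4.30% in soleus, which is within the spread between libraries. Basement membrane chains held 12.0 ± 3.62%, 13.8 ± 4.67% and 13.3 ± 3.74%. Beaded filament chains took 9.22 ± 0.892% in EDL, 14.1 ± 1.95% in psoas and 9.14 ± 1.55% in soleus, and the lowest psoas library (12.0%) was above the highest EDL (10.5%) and the highest soleus library (10.6%). Multiplexins, the basement membrane proteoglycan chains Col15a1 and Col18a1, took 1.04 ± 0.185%, 2.12 ± 0.562% and 1.28 ± 0.288%, and psoas (1.39 to 2.92%) was again above every EDL library (0.841 to 1.32%), but not above every soleus library (1.03 to 1.60%). FACIT chains held 8.08, 7.03 and 6.60% and network chains 4.56, 3.06 and 3.84%. The shares are descriptions and were not tested.

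**Figure D1:**
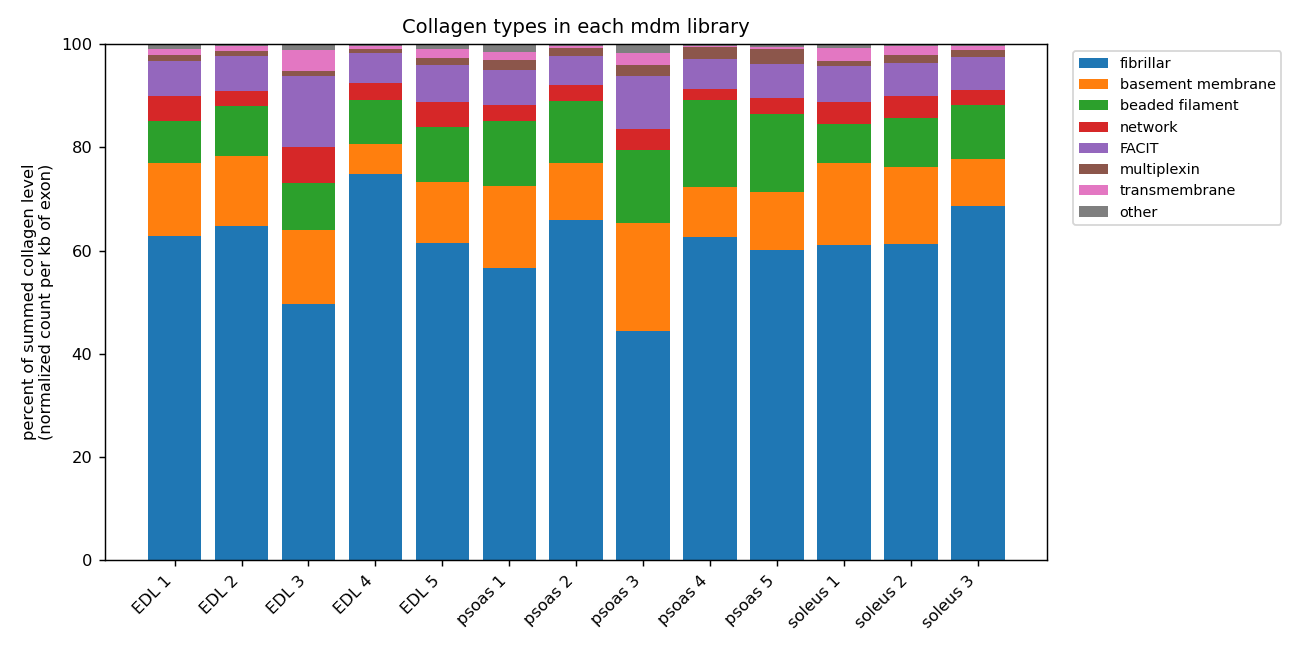
Share of each collagen type in the summed collagen level (normalized count per kb of exon, percent) for each of the 13 *mdm* libraries, stacked to 100%. Fibrillar chains are the largest part in every library, from 44.3% in psoas 3 to 74.8% in EDL 4, and the beaded filament part is 12.0 to 16.8% in psoas against 7.49 to 10.6% elsewhere.

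The psoas was compared with the EDL, both fast muscles, by these limits. Of the 42 chains, 4 were higher in psoas (Col4a5, Col6a5, Col18a1, Col19a1) and 3 were lower (Col11a1, Col11a2, Col22a1). This is 7 of 42 chains, where 4.93% of all genes tested were called, 2.43% higher and 2.50% lower. At an adjusted p below 0.05 alone, 14 chains passed, against 18.1% of all genes. The median log2 fold change of the chains was 0.80, with 28 positive and 14 negative, against 0.02 over all genes. The normalized counts of the 2 muscles did not overlap for 6 chains that were higher in psoas and 2 that were lower, against 13% of all genes in either direction. Reads were counted on whole muscles, so more cells of a type and more RNA per cell cannot be told apart in any of these values.

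The replicate numbers were used as an alternative block, as same-numbered EDL and psoas libraries deviated together. Libraries with different numbers were not correlated for comparison. Replicate 1 came from mice of 38 and 29 days, so it is not 1 mouse, and it had the highest correlation (0.407). The other numbers are not shown to be single mice either, so results with this block are not results of pairing by animal. With the number as a block edgeR called 15 chains, all of the 7 among them, against 7.42% of all genes. With the label code, a condition code of the sample labels, as a block it called 16 chains against 6.48% of all genes. With age as a covariate it called 6 chains, the 7 without Col4a5, against 2.99% of all genes. Without EDL 3 the call was 4 chains (Col11a1, Col11a2, Col18a1, Col19a1) against 1.86% of all genes, and without psoas 2 it was also 4, against 2.14%. Without EDL 3, 11 chains had an adjusted p below 0.05, against 10.7% of all genes, the median was 0.62, and 6 chains higher and 4 lower did not overlap, against 13.6% of all genes. Within the label codes that hold both muscles, 32 of 42 chains were higher in psoas in T4, 32 in T5 and 28 in T6. The sign of the fit held in all 3 codes for 26 chains higher in psoas and 6 lower, the 7 called chains among them. For called chains whose libraries do not overlap, this sign follows from the lack of overlap.

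**Figure D2:**
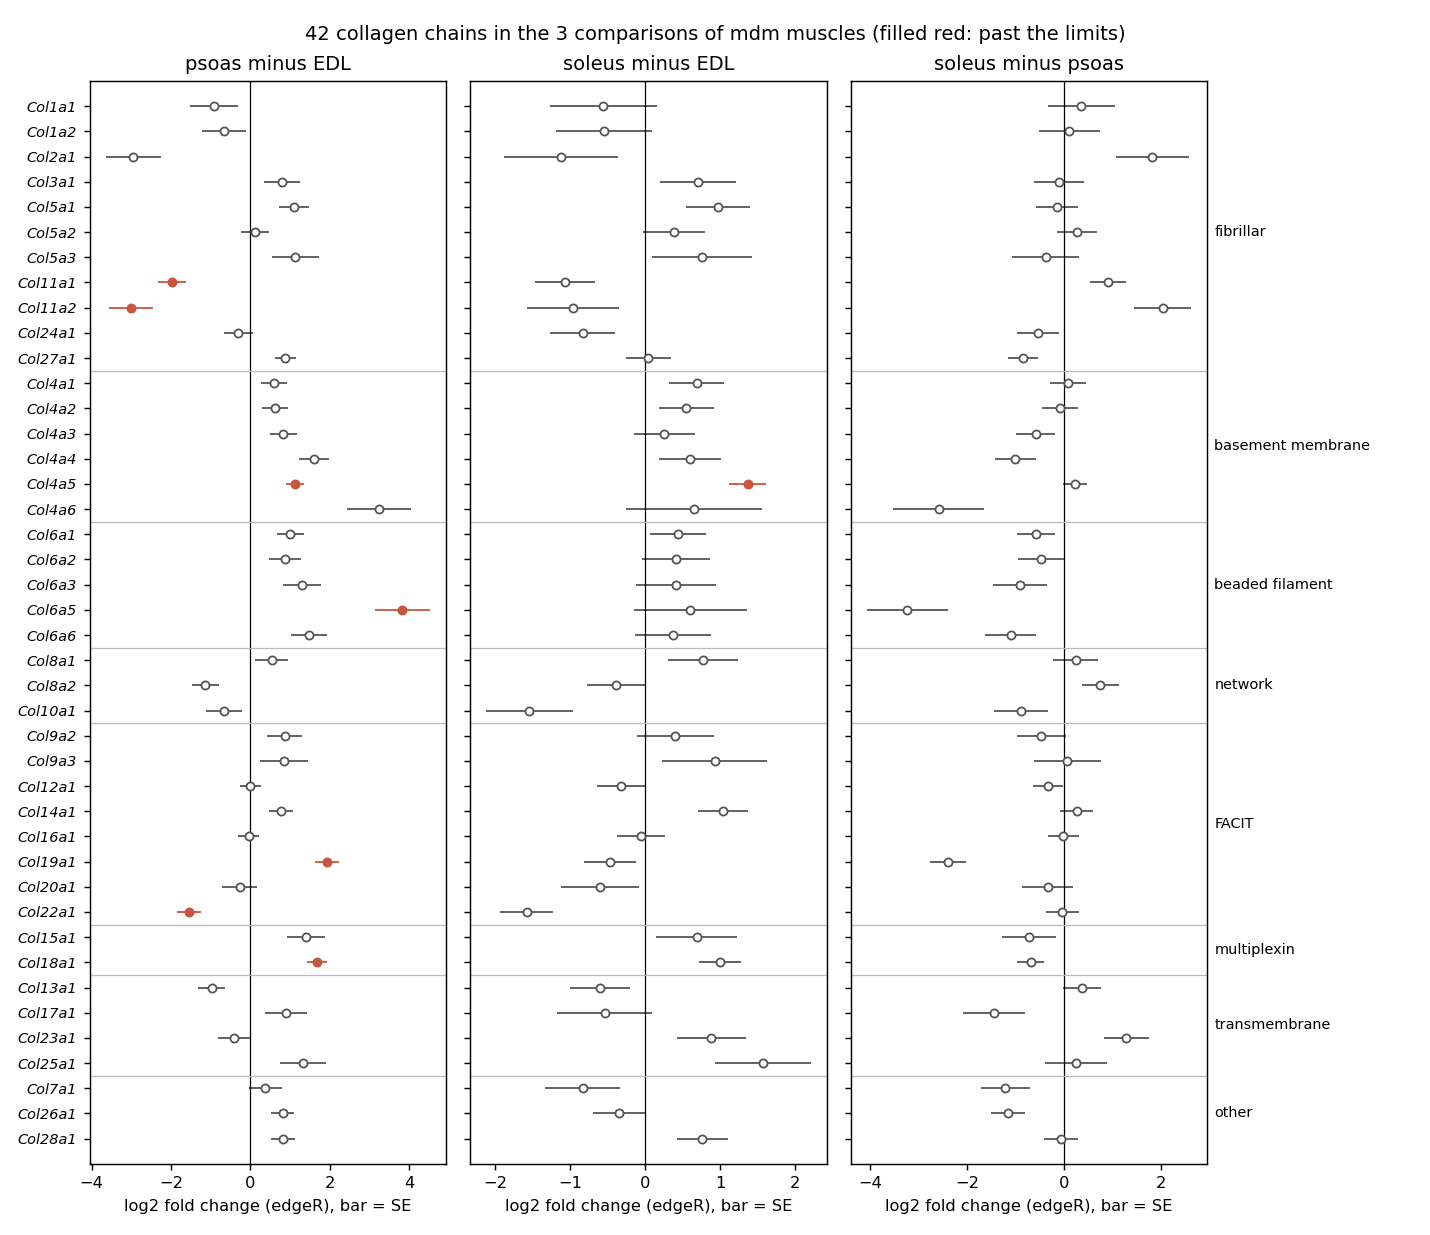
Log2 fold change of the 42 chains tested in each of the 3 comparisons of *mdm* muscles, grouped by type, each panel with its own x axis, with bars of 1 SE from edgeR and the chains past the limits in red. The 7 red chains of psoas minus EDL lie on both sides of 0, all 6 basement membrane and all 5 beaded filament chains lie right of 0 there, and the soleus minus psoas panel holds no red chain.

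The 11 fibrillar chains had a median log2 fold change of -0.30 in psoas against EDL, with 5 positive and 6 negative, and the type XI chains were the ones called. Col11a1 (ENSMUSG00000027966, chr3:114030540-114220718 on GRCm38, plus strand), which joins type V inside fibrils and is abundant in cartilage and tendon, had normalized counts of 728, 1095, 516, 1575 and 1389 in EDL replicates 1 to 5. In psoas the counts were 124, 301, 206, 358 and 356, and in soleus 378, 701 and 430. Every psoas library was below every EDL library, while the soleus values overlapped EDL and lay above all of psoas. Psoas minus EDL gave a log2 fold change of -1.98 (SE 0.347, edgeR adjusted p = 0.00301), and the call was kept when any one of the 13 libraries was left out.

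Col11a2 (ENSMUSG00000024330, chr17:34039437-34066685, plus strand), the second chain of type XI, followed the same order. Its normalized counts were 534, 773, 213, 1498 and 1037 in EDL, 32.6, 61.9, 54.0, 214 and 148 in psoas, and 232, 508 and 505 in soleus. Psoas 4 (214) just exceeded EDL 3 (213), and otherwise the 2 muscles were apart. Psoas minus EDL was at -3.0 (SE 0.557, edgeR adjusted p = 0.00398), and only leaving out psoas 2 moved the adjusted p past the limit, to 0.0122. Col2a1, the cartilage fibril chain that also enters type XI molecules, had counts of 11.9 to 144 in EDL, 2.67 to 21.7 in psoas and 14.9 to 47.1 in soleus, a log2 fold change of -2.95 at an edgeR adjusted p of 0.0114 (0.00267 with the replicate block). Of the tendon list 4 of 6 markers, and of the cartilage list 2 of 5, were also called lower in psoas. In each list 1 marker was positive, at 0.11 for tendon and at 1.59, without overlap, for cartilage, neither called. The summed levels of both lists overlapped between the 2 muscles, with medians of 594 CPM in psoas and 857 CPM in EDL for tendon and 4.92 and 4.24 CPM for cartilage.

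The promoters of Col11a1 and Col11a2 are shown because the pair moved together. RefSeq gave a promoter for 35 of the 44 chains, and the 250 bases before the RefSeq start on GRCm38.p6 were searched on both strands for 4 motifs. The TATA box was read as TATAAA. The CCAAT box was read by the letters of its name, and the E-box, which can overlap it, as CANNTG. The GC box was read as GGGCGG. Capitals mark the TATA, CCAAT and GC boxes in either orientation, not the E-box, and none of the printed stretches holds an annotated exon. The Col11a1 stretch is chr3:114030290-114030539 and the Col11a2 stretch chr17:34038888-34039137, both plus strand.
Col11a1: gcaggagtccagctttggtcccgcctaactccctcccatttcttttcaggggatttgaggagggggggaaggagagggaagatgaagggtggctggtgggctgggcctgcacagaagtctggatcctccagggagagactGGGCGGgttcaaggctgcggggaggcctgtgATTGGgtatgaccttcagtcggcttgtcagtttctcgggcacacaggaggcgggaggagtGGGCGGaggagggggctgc
Col11a2: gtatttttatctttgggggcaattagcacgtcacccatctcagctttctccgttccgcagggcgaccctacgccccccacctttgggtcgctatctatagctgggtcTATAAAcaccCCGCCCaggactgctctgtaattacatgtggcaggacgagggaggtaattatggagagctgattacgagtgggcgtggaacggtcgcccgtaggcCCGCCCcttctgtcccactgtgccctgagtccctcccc
Both hold 2 GC boxes, Col11a1 alone a CCAAT box and Col11a2 alone a TATA box. Over the 38 promoters listed for these 35 chains the GC box stood in 57.9%, against 32.7% of all 32851 promoters of that length, the CCAAT box in 34.2 against 33.8%, the TATA box in 13.2 against 12.4% and the E-box in 50 against 66.2%. The chain promoters also had a higher median GC content, 59.0 against 52.4%.

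The other fibrillar chains did not pass. Col1a1 had normalized counts of 3888, 7012, 731, 13587 and 5518 in EDL, 2424, 4390, 816, 4860 and 3741 in psoas and 1546, 5145 and 5736 in soleus. The muscles overlapped over most of their range, and the log2 fold change of -0.92 (SE 0.607) had an edgeR adjusted p of 0.312. Col3a1 had counts of 36692, 32561, 7513, 41965 and 20577 in EDL, 29543, 86308, 18357, 63039 and 44655 in psoas and 37134, 54537 and 43759 in soleus, a log2 fold change of 0.80 (SE 0.449, edgeR adjusted p = 0.231). The 2 main chains of muscle fibrils thus differed in sign without either passing the test. Col5a1, the core type V chain, was at 1.11 (SE 0.381, edgeR adjusted p = 0.0572), and at 1.22 and 0.00882 with the replicate block; Col5a3, also of type V, was at 1.13 (0.197), and passed with that block (1.25, adjusted p = 0.00267). Col27a1, a minor fibrillar chain, did not overlap between the muscles (29.8 to 59.9 in EDL, 60.8 to 107 in psoas), with a log2 fold change of 0.88 and an edgeR adjusted p of 0.0319. Col1a2, Col5a2 and Col24a1 lay between -0.67 and 0.12.

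All 6 basement membrane chains had a positive fold change in psoas against EDL, with a median of 0.98 on the log2 scale, and 1 was called. Col4a5 (ENSMUSG00000031274, chrX:141475385-141689234, plus strand), a chain of the type IV networks with alpha3 or alpha6, had normalized counts of 154, 172, 139, 118 and 181 in EDL. The counts were 301, 444, 323, 301 and 303 in psoas and 438, 513 and 222 in soleus. Both other muscles were above every EDL library. Against EDL the difference was 1.13 for psoas on the log2 scale (SE 0.224, edgeR adjusted p = 0.00547) and 1.36 for soleus (SE 0.250, edgeR adjusted p = 0.00855). Both calls were close to the limit: leaving out any 1 of 7 libraries (EDL 1, 3, 4, 5 or psoas 1, 2, 3) put the psoas value between 0.0101 and 0.0170, and the soleus value passed in 2 of the 13 such fits, those without psoas 2 and without soleus 3.

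Col4a6, the chain that pairs with alpha5 in some basement membranes, is encoded head to head with Col4a5, 1309 bases apart on the X chromosome, and its values are low. Its normalized counts were 16.2, 2.55, 0, 3.27 and 5.41 in EDL, 143, 98.3, 22.0, 25.2 and 8.29 in psoas and 11.2, 10.7 and 6.88 in soleus. The psoas values spread over more than those of any other muscle, and EDL 1 lay inside them. A log2 fold change of 3.24 (SE 0.798) had an edgeR adjusted p of 0.0139, and of 0.00598 with the replicate block. The stretches before the 2 starts are shown because the genes share this interval but not their levels: for Col4a5 chrX:141475169-141475384 (plus strand), and for Col4a6 chrX:141474077-141474326 (minus strand).
Col4a5: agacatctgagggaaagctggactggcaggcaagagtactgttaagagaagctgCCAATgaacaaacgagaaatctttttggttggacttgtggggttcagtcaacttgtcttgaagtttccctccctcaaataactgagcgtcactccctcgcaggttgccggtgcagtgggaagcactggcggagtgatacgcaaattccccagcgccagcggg
Col4a6: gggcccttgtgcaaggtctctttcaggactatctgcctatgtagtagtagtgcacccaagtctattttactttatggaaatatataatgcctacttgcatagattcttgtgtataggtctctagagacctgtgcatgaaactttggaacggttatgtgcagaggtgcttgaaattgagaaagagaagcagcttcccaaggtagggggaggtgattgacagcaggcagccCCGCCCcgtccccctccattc
The Col4a5 stretch was ended before the annotated first exon, which the searched window enters. A CCAAT box stands in the printed Col4a5 stretch and a GC box in the Col4a6 stretch, and the Col4a5 window also holds a GC box in the part not printed. Col4a1 and Col4a2, the main chains of every basement membrane, are also head to head, and their first exons share 22 bases. They had log2 fold changes of 0.60 and 0.62 (edgeR adjusted p = 0.209 and 0.189). Col4a3 and Col4a4, whose starts are 72 bases apart, were at 0.83 (adjusted p = 0.112) and 1.60 (0.0102). Col4a4 had 15.9 to 38.9 normalized counts in EDL and 42.6 to 146 in psoas, which do not overlap, and its adjusted p with the replicate block was 0.00761. The Schwann cell and mesothelial lists were higher in the same psoas libraries.

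Beaded filament chains were all positive in psoas, with a median log2 fold change of 1.31. Col6a5 (ENSMUSG00000091345, chr9:105856078-105960643, minus strand), an alternative to alpha3 in type VI, was the called one. It had normalized counts of 37.5, 31.3, 11.9, 88.2 and 36.5 in EDL, 282, 1855, 163, 337 and 317 in psoas and 56.7, 26.4 and 112 in soleus. Psoas stood above all other libraries, and psoas 2 stood far above the other 4. On the log2 scale psoas was higher by 3.83 (SE 0.698, edgeR adjusted p = 0.00361), the largest of the 42 chains, and without EDL 3 or EDL 5 the adjusted p was 0.0115 or 0.0110. The common chains moved less. Col6a1, Col6a2 and Col6a3 had log2 fold changes of 1.0, 0.88 and 1.31, with edgeR adjusted p of 0.0477, 0.144 and 0.0696, and Col6a1 passed with the replicate block (1.08, adjusted p = 0.00541). Col6a6, the third alternative chain, was at 1.47 (adjusted p = 0.0347), and at 0.00514 with the block.

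A multiplexin and a FACIT chain were called higher in psoas. Col18a1 (ENSMUSG00000001435, chr10:77052178-77166548, minus strand), a heparan sulfate proteoglycan of basement membranes whose end piece is endostatin, had normalized counts of 202, 151, 69.7, 147 and 134 in EDL. The counts were 539, 429, 382, 345 and 577 in psoas and 254, 351 and 239 in soleus. The order was EDL, soleus, psoas, with 1 soleus library inside the psoas range. Psoas was higher than EDL by a log2 fold change of 1.68 (SE 0.247, edgeR adjusted p = 0.00135), the smallest adjusted p of the chains in this comparison, and no left-out library ended the call. Col15a1, its relative of the outer basement membrane, had 99.5 to 525 normalized counts in EDL and 459 to 1826 in psoas, a log2 fold change of 1.4 (SE 0.478) and an edgeR adjusted p of 0.0547.

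Col19a1 (ENSMUSG00000026141, chr1:24261890-24587472, minus strand), a FACIT chain of basement membrane zones that is made by muscle cells and neurons, had normalized counts of 197, 306, 133, 162 and 137 in EDL. The counts were 821, 694, 987, 601 and 482 in psoas and 210, 109 and 84.2 in soleus. Psoas stood above every other library, and EDL and soleus overlapped. The difference to EDL was 1.93 on the log2 scale (SE 0.302, edgeR adjusted p = 0.00182), again with no call lost to a left-out library.

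Col22a1 (ENSMUSG00000079022, chr15:71795795-72034227, minus strand), a FACIT chain of the myotendinous junction, went the other way. Its normalized counts were 819, 1122, 824, 975 and 887 in EDL, 108, 262, 369, 491 and 353 in psoas and 331, 317 and 277 in soleus. The EDL libraries stood above all others. Against EDL the difference on the log2 scale was -1.55 for psoas (SE 0.296, edgeR adjusted p = 0.00431; 0.0108 without EDL 3 and 0.0131 without psoas 2) and -1.58 for soleus (SE 0.356, edgeR adjusted p = 0.0246). Col12a1 and Col16a1, FACIT chains of fibril surfaces, were at 0.00 (SE 0.270) and -0.05 (SE 0.274), and Col14a1, another, at 0.77 (SE 0.298, edgeR adjusted p = 0.0847). Of the remaining FACIT chains Col9a2, Col9a3 and Col20a1 were between -0.27 and 0.87, and Col9a1 had at most 31 raw counts in any library.

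**Figure D3:**
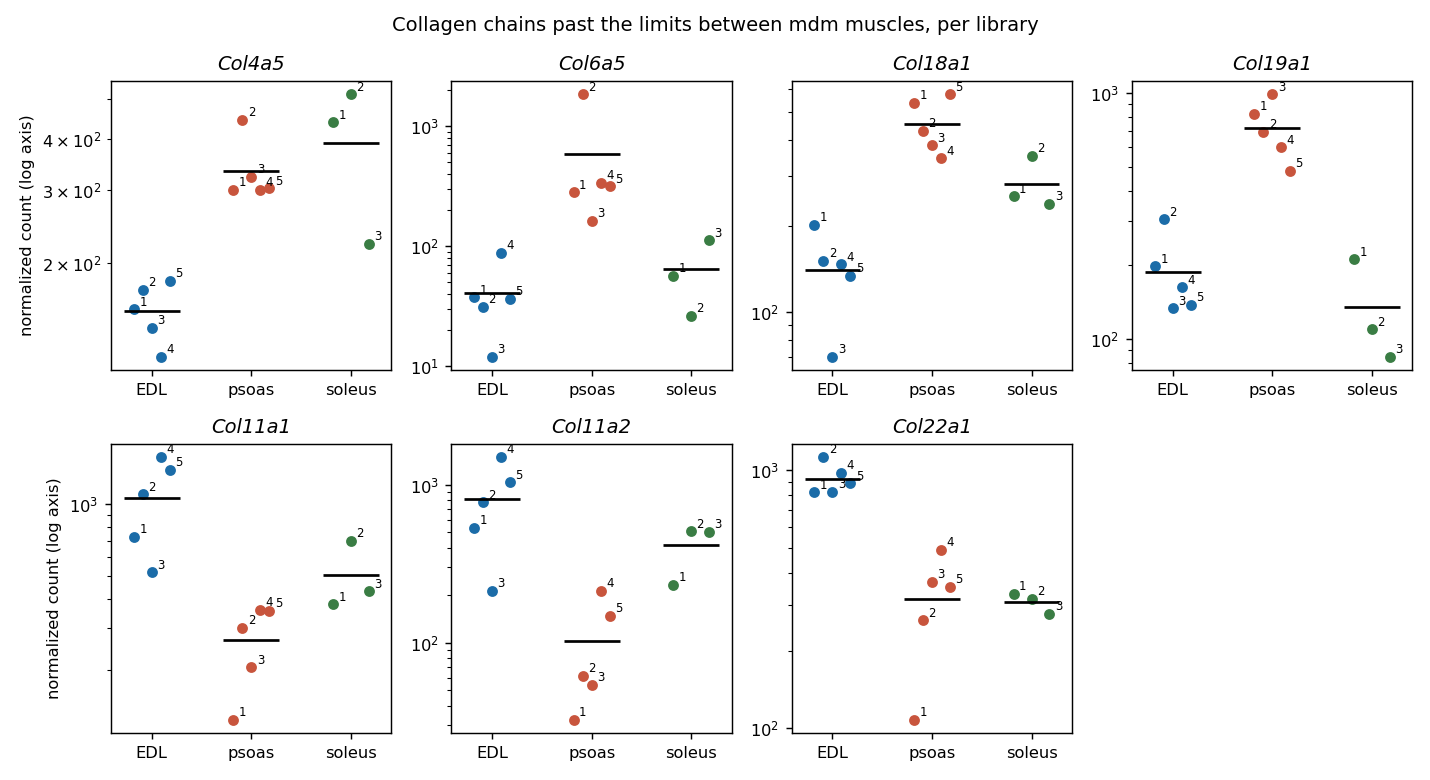
Normalized counts (log axis) of the 7 called chains in each *mdm* library, with the replicate number beside each point and the mean as a bar. Psoas lies above EDL for Col4a5, Col6a5, Col18a1 and Col19a1 and below it for Col11a1 and Col22a1, without overlap, and for Col11a2 psoas 4 (214) and EDL 3 (213) meet.

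No network, transmembrane or other chain was called in psoas against EDL. Col8a1 and Col8a2, chains of vessel and Descemet-type networks, were at 0.53 (edgeR adjusted p = 0.394) and -1.14 (0.0323), and Col8a2 passed with the replicate block (-1.05, adjusted p = 0.0076). Col10a1, the chain of hypertrophic cartilage, was at -0.66 with 20.4 to 116 normalized counts in EDL and 15.6 to 44.8 in psoas. Of the transmembrane chains, Col13a1, found at the neuromuscular junction, was at -0.98 (edgeR adjusted p = 0.0583), Col23a1 at -0.41 and Col17a1 at 0.91. Of 8 neuromuscular junction markers, Chrng and Chrnd were higher and Chrne was lower in psoas. Col25a1, which muscle fibres need for innervation, was at 1.32 (SE 0.572, edgeR adjusted p = 0.121), with 45.8 to 192 normalized counts in EDL and 32.1 to 473 in psoas. Col7a1, of anchoring fibrils, Col26a1 and Col28a1 were at 0.37, 0.81 and 0.82 (edgeR adjusted p = 0.569, 0.0712 and 0.0738).

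The slow soleus was compared with the EDL next, and Col4a5 was the only chain called, where 0.978% of all genes were. At an adjusted p below 0.05, 2 chains passed, Col4a5 and Col22a1, against 3.43% of all genes. The median log2 fold change was 0.39, against -0.03 over all genes. Non-overlapping counts were seen for 3 chains higher in soleus (Col4a5, Col5a1, Col18a1) and 2 lower (Col10a1, Col22a1), against 11% of all genes in either direction. Without EDL 3 the median was 0.18, and 3 chains higher and 4 lower did not overlap, against 11.9% of all genes. Col18a1 was at 1.0 (SE 0.274, edgeR adjusted p = 0.0629) and Col10a1 at -1.54 (SE 0.574, adjusted p = 0.189), with soleus counts of 17.1 to 18.9. Without EDL 3 no chain was called, against 0.334% of all genes, and Col4a5 had an edgeR adjusted p of 0.0240; the limma count was also 0, against 1.27%. Within the codes, Col4a5 was higher in soleus by 1.44 in T4 and 0.61 in T6 on the log2 scale, and Col22a1 lower (-1.81 and -1.73). The adipocyte list was higher in soleus than in EDL for 4 of 8 markers, with summed levels of 3505 to 5557 CPM in soleus and 459 to 1579 CPM in EDL. All 8 endothelial markers had positive values there (0.23 to 0.90 on the log2 scale), with none called.

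Soleus against psoas gave 0 called chains with edgeR, where 0.0762% of all genes were called, and 13 chains had an unadjusted p below 0.05; DESeq2 called 2, against 1.0% of all genes, and limma 1, against 0.117%. The chain nearest to the limit was Col19a1, at -2.39 on the log2 scale (SE 0.375, edgeR adjusted p = 0.0121), with every soleus library below every psoas library. It was also the 1 chain with an adjusted p below 0.05, against 0.633% of all genes, and it was lower in soleus within both codes (-2.17 in T4, -2.65 in T6). Non-overlapping counts were seen for 2 chains higher in soleus (Col11a1, Col11a2) and 5 lower (Col6a5, Col17a1, Col19a1, Col26a1, Col27a1), against 10.2% of all genes. Col6a5 was at -3.23 (SE 0.835, edgeR adjusted p = 0.120) and Col11a2 at 2.04 (SE 0.590, adjusted p = 0.162). The median of the chains was -0.23, against -0.03 over all genes. In the test for any difference between the 3 muscles the same 7 chains as in psoas against EDL were called at an adjusted p below 0.01, against 4.22% of all genes, led by Col19a1 (edgeR adjusted p = 0.000917) and Col18a1 (0.00272).

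**Figure D4:**
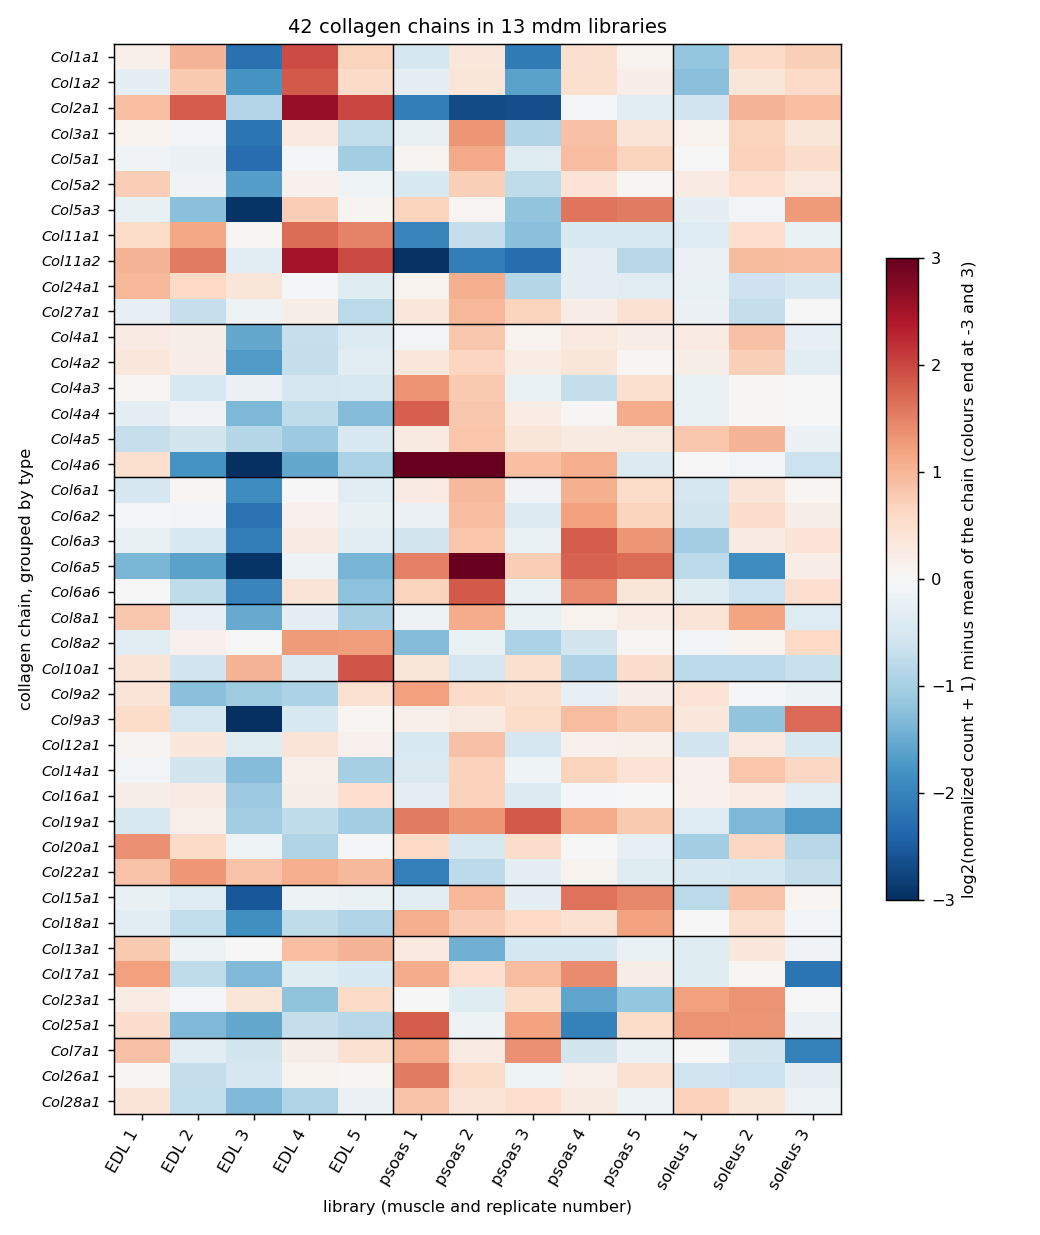
log2(normalized count + 1) of the 42 chains in the 13 *mdm* libraries minus the mean of each chain, grouped by type, with red above and blue below the mean and the colours ending at -3 and 3. EDL 3 is blue for most chains (lowest EDL library for 30 of 42), while Col22a1 and Col11a1 stay at or above their mean there.

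Ratios between chains of 1 library do not depend on its scaling, and 20 pairs of chains, of 1 type each except Col4a1 to Col1a1 and Col15a1 to Col4a1, were compared between muscles by exact two-sided permutation of the mean log2 ratio per exon length. None of 60 tests had a Benjamini-Hochberg adjusted p below 0.05 (smallest 0.0794), and 15 had an unadjusted p below 0.05. For 5 against 5 libraries the smallest exact p is 0.00794, so at least 10 tests at that value would be needed for any of them to pass. Between psoas and EDL 6 pairs reached it, with ranges that did not overlap. Leaving out EDL 3 cannot make such ranges overlap, and without it 8 of the 20 pairs did not overlap. The permutation treats all 10 libraries as independent. With same-numbered libraries kept as pairs, 10 of the 20 ratios differed with the same sign in all 5 pairs. For the 6 ratios above this follows from ranges that do not overlap. An exact sign-change test over 5 pairs cannot go below p = 0.0625, which is the value each of the 6 had. Col3a1 to Col1a1 was 10.2 in psoas (7.98 to 15.0) and 3.70 in EDL (2.07 to 6.88), as a geometric mean. Col5a1 to Col1a1 was 0.662 against 0.182, and Col11a1 to Col5a1, the XI to V ratio, 0.0708 against 0.643. Col5a2 to Col5a1, 2 chains of type V, was 2.20 in psoas (2.02 to 2.35) against 4.46 in EDL (3.25 to 5.77). Col6a5 to Col6a3 was 0.120 against 0.0242, and Col22a1 to Col12a1 0.313 against 0.973. Each of these 6 differences had an exact permutation p of 0.00794 and an adjusted p of 0.0794. Their sign within codes T4, T5 and T6 is also fixed by ranges that do not overlap. The pairs reuse chains such as Col5a1 and Col1a1, and Col11a1, Col6a5 and Col22a1 are among the chains called above. The 6 ratios are therefore not 6 separate results.

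The soleus values of these ratios lay nearer to psoas than to EDL for the 4 fibrillar pairs and for Col22a1 to Col12a1 (0.418). For Col6a5 to Col6a3 (0.0288) soleus lay nearer to EDL. Col3a1 to Col1a1 was 8.34 (5.10 to 16.1) and Col11a1 to Col5a1 was 0.144 (0.118 to 0.171), the latter outside the EDL range (exact p = 0.0179, adjusted p = 0.0893, the smallest exact p for 3 against 5 libraries being 0.0179). The latter was also above the psoas range (0.0466 to 0.106, exact permutation p = 0.0357, adjusted p = 0.143). Col5a2 to Col5a1 in soleus (2.62 to 3.62) overlapped EDL and was above the psoas range (2.02 to 2.35, exact permutation p = 0.0179, adjusted p = 0.0893). Col14a1 to Col12a1, 2 FACIT chains of fibril surfaces, was 2.05 in EDL, 3.74 in psoas and 5.62 in soleus, with adjusted p between 0.0893 and 0.143 in exact permutation tests. Of the chains that build 1 trimer, Col4a3 to Col4a4 was 1.27 in EDL, 0.670 in psoas and 0.925 in soleus, with an exact permutation p of 0.0159 (adjusted p = 0.0893) for psoas against EDL, beside the type V pair above. Unlike that pair its sign was not the same in every code (0.35 in T4, -1.64 in T5 and -1.28 in T6 on the log2 scale). Of the same-numbered pairs 4 were negative and 1 positive. The lowest EDL raw counts were 16 for Col4a3 and 8 for Col4a4. For the main chains of types I, IV and VI, Col1a1 to Col1a2 was 1.32, 1.12 and 1.38 in EDL, psoas and soleus, Col4a1 to Col4a2 was 1.38, 1.31 and 1.47, and Col6a1 to Col6a2 was 1.86, 2.06 and 1.85. Levels per exon length depend on the annotated length, which cancels in a comparison of 1 ratio between muscles but not in its size.

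**Figure D5:**
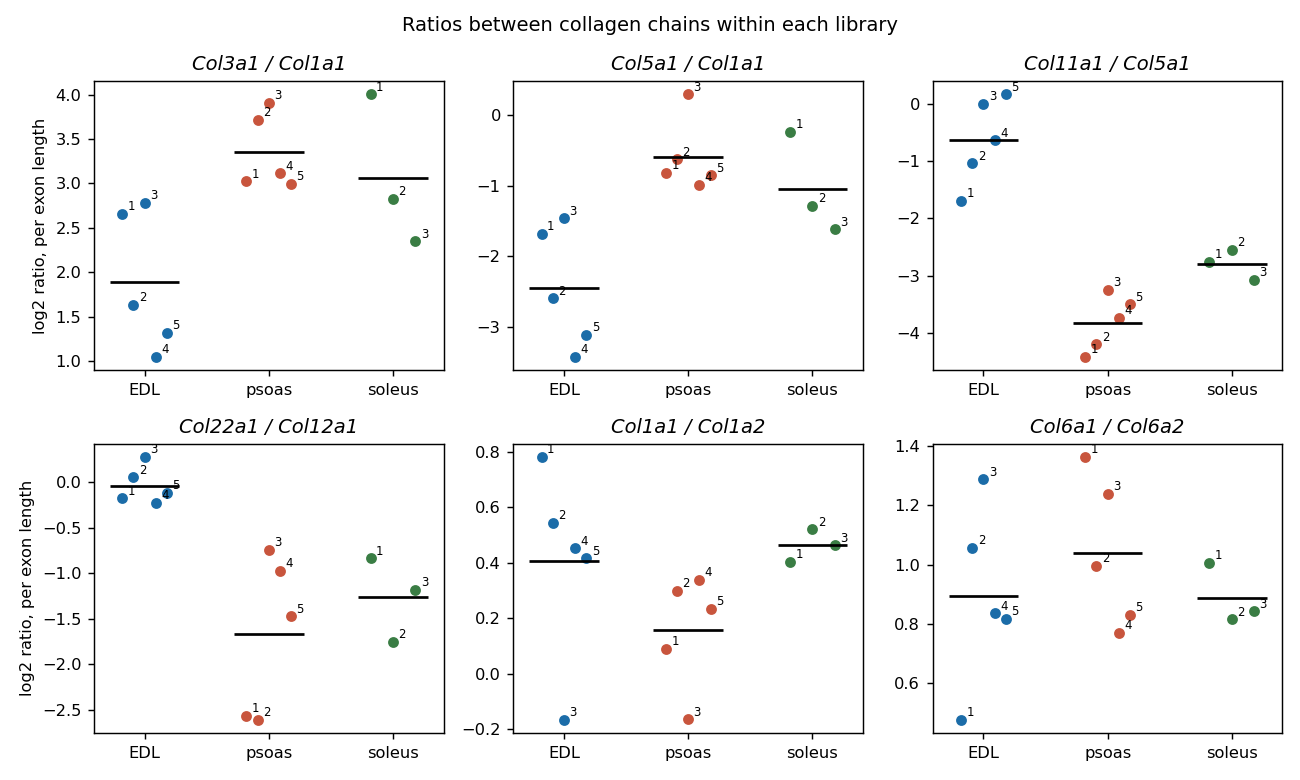
Log2 ratio of 2 collagen chains per exon length in each *mdm* library, with replicate numbers and the mean as a bar. In the first 4 panels psoas and EDL do not overlap, while the ratios within type I (Col1a1 / Col1a2) and within type VI (Col6a1 / Col6a2) span less than 1.5 log2 units in all libraries.

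The genes that build and bind collagen were read from the same fit. Of 27 genes of collagen synthesis (hydroxylases, chaperones, procollagen proteinases and their enhancers), 1 was called in psoas against EDL, 1 in soleus against EDL and 1 in soleus against psoas, where 4.93, 0.978 and 0.0762% of all genes were, with medians of -0.03, 0.09 and 0.04 on the log2 scale. Pcolce2, an enhancer of procollagen C-proteinase, had 408 to 1073 normalized counts in EDL, 180 to 340 in psoas and 407 to 837 in soleus, and was lower in psoas than in EDL by a log2 fold change of -1.35 (SE 0.276, edgeR adjusted p = 0.00628), a call that was lost without EDL 3, 4 or 5 and without psoas 1, 2 or 3. P3h2, a prolyl 3-hydroxylase known for acting on type IV, had 73.7 to 156 in EDL, 65.0 to 87.6 in psoas and 270 to 685 in soleus. It was higher in soleus than in EDL (2.20, SE 0.303, edgeR adjusted p = 0.00188) and than in psoas (2.67, SE 0.305, adjusted p = 0.0015), and both calls were lost without soleus 1 or without soleus 2. Of 10 collagen receptors, only Ddr1, a receptor tyrosine kinase for collagen, was called, with 50 to 126 normalized counts in EDL, 154 to 278 in psoas and 107 to 159 in soleus, and a log2 fold change of 1.57 in psoas against EDL (SE 0.263, edgeR adjusted p = 0.00239). The fibroblast markers, at a median of 0.16 in psoas against EDL, and the synthesis genes lay near the median of all genes. The 42 chains had a median of 0.80, while the 11 fibrillar chains among them had one of -0.30.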

How the data were processed

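RNA-Seq of 13 *mdm* muscle libraries (5 EDL, 5 psoas, 3 soleus) was used. The authors aligned 75 bp paired reads to GRCm38.p4 with TopHat 2.1.1, after trimming with Trimmomatic 0.32 where quality was low, and deposited counts per gene, made with GenomicAlignments. The overlap mode and strand setting are not given in the sources used here. The authors also deposited the same counts divided by DESeq2 size factors as a normalized signal; these factors (0.502 to 2.42) were computed with libraries not analysed here. The tables hold the 17924 genes left by the study's filter on low counts, 17833 of them named by GENCODE release 21, and 0 entries without a gene. Exons of the 7 called chains share under 1% of their bases with another gene.

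Counts were fitted with edgeR 4.0.16 (TMM, quasi-likelihood) in R 4.3.3, with muscle as the term and all 13 libraries, after dropping genes that did not reach a normalized count of 10 in 3 libraries; the fit was tested on simulated counts. The SE is the log2 fold change over the root of F. Alternatives were DESeq2 1.42.0, limma 3.58.1 on log2(normalized count + 1), other scalings and filters, age, label code or replicate number as terms, and each library left out. No 2 libraries had counts alike within sampling noise (smallest chi-square per degree of freedom 61.0). Deviations from the muscle means correlated at 0.289 to 0.407 between same-numbered EDL and psoas libraries, and these numbers were taken as pairs. The highest value was that of replicate 1, whose mice differ in age (38 and 29 days), and replicates 2 to 5 each share a label code. Replicate 1 is therefore not 1 mouse, and the correlation does not show that any other number is. Libraries with different numbers were not correlated for comparison. The study fitted the sequencing run; the labels do not name it, and the label code was used instead. Codes T1 and T3 hold 1 library each and add nothing to that fit.

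Named chains were those called in any comparison, the 2 with the highest level per kb of each type and the members of types with at most 2 chains; other chains are named to account for every member and were described after their values were seen. From the synthesis and receptor lists, called genes were named. The members and lists were chosen with earlier results of these data known. Protein features were not analysed here. One gene of the marker lists is not reported here.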

Additional observations from a re-analysis of the deposited data

Results flagged for a closer look

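In groups of 5 libraries, a chain was set apart where the gap between its highest or lowest library and the nearest other exceeded Dixon's limit for the range. This held for 9 of 88 groups (a chain, or the collagen share, in 1 muscle). The limit is set to be passed by about 1 in 20 groups of independent, normally distributed values. These groups share the same libraries, so that rate is no background for the 9. The share of all genes passing this rule is not given here. In psoas 2, the library with the highest collagen share, the normalized counts of Col4a5 (444, the others 301 to 323), Col6a5 (1855, the others 163 to 337), Col8a1 (3616, the others 1460 to 1949) and Col16a1 (1158, the others 538 to 705) were far above the other psoas libraries. In EDL 3, the library with the lowest share, Col6a2 (448, the others 1788 to 2257) and Col15a1 (99.5, the others 447 to 525) were far below the other EDL libraries. In EDL 1, Col17a1 (28.5, the others 3.98 to 8.71) and Col25a1 (192, the others 45.8 to 80.6) were far above, and in psoas 1, from the mouse of 29 days, Col26a1 was (271, the others 85.2 to 136). Col4a5 and Col6a5 are both called in psoas against EDL; without psoas 2 Col4a5 fell short of the adjusted p limit (edgeR adjusted p = 0.0167), and Col6a5 remained called.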

How the results depend on the processing

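The calls of the 7 chains never changed direction under any of the alternatives run: of 176 values of a chain under a setting, 147 kept their side of the limits, 29 lost the call and 0 reversed. RLE scaling, the authors' size factors and no filter on low counts gave the same counts of called chains in all 3 comparisons, and no setting moved the median of all genes by over 0.1. In psoas against EDL (7 called, 4.93% of all genes), DESeq2 called 12 (9.29%), the label code block 16 (6.48%) and the replicate block 15 (7.42%). An adjusted p below 0.05 alone gave 14 (18.1%), and leaving out 1 library gave 4 to 8 (1.86 to 4.7%). With age as a covariate 6 chains were called (2.99%), without Col4a5, and the median of the chains was 0.63. The only mouse of 29 days was among the psoas libraries. In soleus against EDL (1 called, 0.978% of all genes), DESeq2 gave 2 (3.71%) and the adjusted p below 0.05 gave 2 (3.43%). With limma (1.27%), age as a covariate (0.287%) and the replicate block (0.961%) 0 were called. Leaving out 1 library gave 0 to 1 (0.111 to 1.07%). With the label code block (0.504%), with only the 2 muscles (0.715%), and without psoas 1 (1.07%), the 1 call was Col22a1 and not Col4a5. In soleus against psoas (0 called, 0.0762% of all genes), DESeq2 gave 2 (1.0%), limma 1 (0.117%) and the adjusted p below 0.05 1 (0.633%). Leaving out 1 library gave 0 to 1 (Col19a1 without EDL 2, 0.0527%). The test over 3 muscles (7 called, 4.22% of all genes) gave 12 with the label code block and 4 with age. It gave 2 to 7 with 1 library left out (3 without EDL 2, 4 without EDL 3, EDL 4 or psoas 2, and 2 without EDL 5 or soleus 1). For these alternatives of the 3-muscle test the shares of all genes are not given here. For the 27 synthesis and 10 receptor genes in psoas against EDL (2 called), DESeq2 gave 4 (9.29% of all genes), age 1 (2.99%) and the replicate block 4 (7.42%). Leaving out a library gave 1 to 3 (1 without EDL 4, EDL 5, psoas 1, psoas 2 or psoas 3), against 1.86 to 4.7% of all genes. In soleus against EDL and against psoas (1 called each) the label code block gave 0 (0.504 and 0.0352%) and leaving out a library 0 to 1. There the replicate block gave 1 and 0 (0.961 and 0.00586%). The permutation tests of ratios are too coarse for their count of 0 to bear on stability; the replicate block for them, chosen after seeing the data, cannot go below 0.0625. The cause of these differences was not tested.

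The replicate block was fitted for each pair of muscles. All 7 calls of psoas against EDL were kept with it, while for soleus minus EDL it took the edgeR adjusted p of Col4a5 to 0.0451. For soleus the numbers are not taken as pairs: same-numbered deviations correlated at 0.115, 0.421 and -0.162 with EDL and 0.159, 0.141 and -0.302 with psoas. With the longest coding transcript as length, an alternative chosen after seeing the data, Col3a1 made up 39.4, 48.0 and 50.1% of the level in EDL, psoas and soleus, Col1a2 11.5, 5.63 and 6.25%, and the fibrillar share in soleus was 70.9%. Low counts limit Col4a6, Col9a2, Col9a3 and Col17a1. They also limit Col2a1 in psoas (lowest raw count 3) and Col4a4 and Col6a5 in EDL (lowest raw counts 8 and 6). By the RNA integrity numbers the paper lists, no *mdm* psoas library was above any *mdm* EDL library, and the part of this in the results was not tested. The soleus comparisons rest on 3 libraries.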
